A study of Mus musculus with 24 samples.

Results

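The effect of the stronger of a pair of Keap1 siRNAs on the liver transcriptome was described by comparing 8 livers of mice treated with siKeap1-1 with 8 livers of mice treated with siControl. These are 16 of the 24 arrays of the series, and the other 8 arrays are livers treated with a further Keap1 siRNA, siKeap1-2. RNA of each liver was hybridized to a mouse whole genome array from Affymetrix, and the comparison was followed over 18194 genes. All mice were male C57BL6/J mice that were 8 weeks old when the diet began, and all groups, siControl included, were kept on the Western diet (a high-fat diet with 6% sucrose in the drinking water). The siRNAs were chemically modified, packed in lipid nanoparticles that carry them mainly to hepatocytes, and injected weekly into the tail vein at 1 mg per kg for 7 weeks. The siControl molecule had a scrambled sequence with no intended target, so both groups received an injected and formulated siRNA. According to the methods, each group held fed and fasted mice in equal number, but the labels do not say which mice were fasted. If the arrays hold them in equal number, feeding enters as part of the spread within each group, which was not tested.

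Keap1 is the sensor that holds the transcription factor Nrf2 (gene Nfe2l2) in the cytoplasm and hands it to the Cul3 ubiquitin ligase for breakdown by the proteasome. Oxidants and electrophiles disarm Keap1, upon which Nrf2 enters the nucleus and binds antioxidant response elements together with small Maf proteins. In the liver this system is best known for genes that detoxify electrophiles, make glutathione, conjugate foreign compounds and export the conjugates.

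Each value below is a log2 signal, in which a difference of 1 is a 2-fold change, and each gene is represented by the brightest of its probe sets that name it alone. Group values are given as the median over 8 mice with the lowest and the highest mouse, followed by the difference between the group means, siKeap1-1 minus siControl, with its standard error (SE). A gene was called when the p-value of limma, adjusted over all 45037 probe sets by the Benjamini-Hochberg method, was under 0.05. Arrays of the same group correlated across probe sets at 0.9896 to 0.996 with siKeap1-1 and at 0.9885 to 0.9954 with siControl, and the number of arrays limits the precision of each value. The labelled tissue was borne out by hepatocyte markers, among which albumin (Alb) had a median of 14.77 (14.72 to 14.83) with siKeap1-1 and of 14.80 (14.76 to 14.82) with siControl.

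A probe set for 18S ribosomal RNA, a control on these arrays, separated the groups in part and is given here because it moves with several results. In replicates 1 to 3 its log2 signal ranged from 10.34 to 10.77 with siControl and from 10.17 to 10.44 with siKeap1-1. In replicates 4 to 8 the siControl range was 8.86 to 9.54 and the siKeap1-1 range 11.17 to 11.43. The groups therefore overlapped in this probe set among replicates 1 to 3 and stood apart among replicates 4 to 8, and the part of this difference in the results was not tested beyond the settings given below. Of 123 called genes chosen for naming by rule, 66 were also called with this signal as a covariate. Since the signal differs between the groups, a call can be lost in that fit without a smaller change.

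The target of the siRNA was measured first. The log2 signal of Keap1 was 9.57 (9.33 to 10.03) with siControl and 7.47 (7.21 to 7.93) with siKeap1-1, and every siKeap1-1 liver lay below every siControl liver. The mean fell by 2.13 on the log2 scale (SE 0.11, adjusted p = 2.28e-12), which is a signal 77.1% lower than with siControl (exact permutation test over all 12870 splits, two-sided, p = 0.000155, the smallest these groups can give). With siKeap1-2 the signal of Keap1 was 8.23 (8.03 to 8.59), which is 61.2% lower than with siControl. The difference between the Keap1 siRNAs was tested directly, and Keap1 was lower with siKeap1-1 by -0.76 (SE 0.11, adjusted p = 0.0022), with no overlap between these groups either, which bears out the name of the stronger siRNA at the level of the target. A second, much dimmer probe set of Keap1 (mean log2 signal 5.17 over all arrays) was lower by -0.42 with siKeap1-1 (SE 0.12, adjusted p = 0.026).

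Of the 18194 genes, 1726 (9.49%) were called, of which 876 (4.81%) were higher and 850 (4.67%) lower with siKeap1-1, while the median change of all genes was 0.0142. Rises and falls were alike in number but not in size. Among the called genes, 99 rose and 31 fell by over 2-fold, 26 rose and 5 fell by over 4-fold, and 9 rose but 0 fell by over 8-fold. The signals come without detection calls, so a change of a gene that is dim with siControl is a difference of signals and not a measured fold of RNA. Most calls were small changes, with a median of 0.40 for genes called higher and of -0.39 for genes called lower. At a fold over 2 with an unadjusted p under 0.01, 137 genes passed (0.753%), 100 of them higher. The groups did not overlap in 312 genes (1.71%), of which 204 (1.12%) were higher and 108 (0.594%) lower with siKeap1-1. The share of genes called went up with brightness, from 1.74% of the 4548 dimmest genes to 15.3% of the 4549 brightest. A further 20 genes moved by over 2-fold without being called, and their SE had a median of 0.48 against 0.24 for called genes over 2-fold. The widest of these were Nipal1 (-1.92), Fdps (-1.64), Chrna4 (-1.48), Fasn (-1.41) and Esm1 (1.36).

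**Figure D1:**
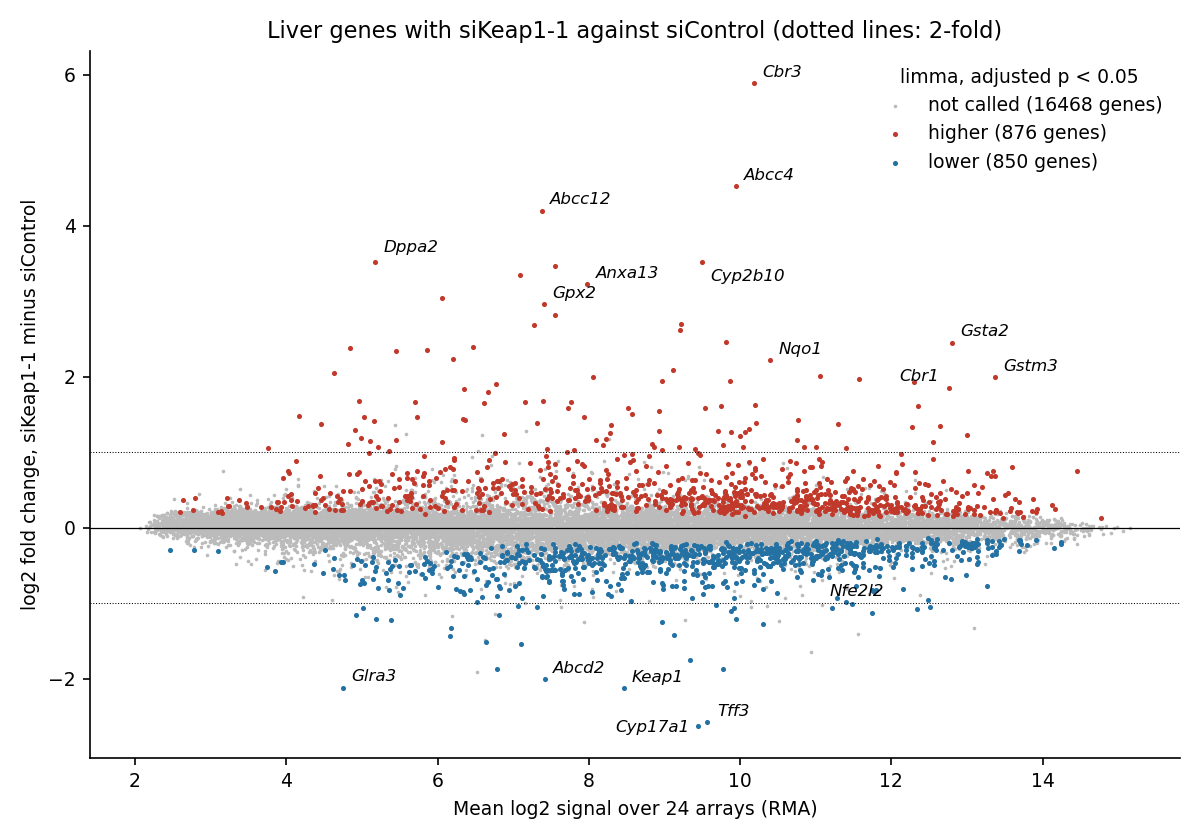
Each point is 1 of the 18194 genes, with its mean log2 signal over the 24 arrays on the horizontal axis and its log2 change, siKeap1-1 minus siControl, on the vertical axis. Red and blue points are the 876 genes called higher and the 850 called lower, and the largest rises, led by Cbr3 at 5.90, reach much further from 0 than the largest falls.

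Within the Keap1-Nrf2 system itself, 2 of 12 measured genes changed, and both fell. Besides Keap1 this was Nfe2l2, the gene of Nrf2, with a log2 signal of 11.42 (11.06 to 11.89) with siControl and of 10.81 (10.66 to 11.02) with siKeap1-1. Its mean fell by 0.63 (SE 0.088, adjusted p = 4.14e-05), and the groups did not overlap, while a dimmer probe set of Nfe2l2 differed by -0.40 and was not called (adjusted p = 0.16). The scaffold of the Keap1 ligase, Cul3, had a difference of 0.0099 (SE 0.051, adjusted p = 0.94), and the small Maf gene Mafg one of 0.14 (SE 0.089, adjusted p = 0.36).

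Quinone, carbonyl and aldo-keto reductases, which reduce reactive carbonyls and quinones with NADPH, rose in 11 of 19 measured genes and fell in 0, with a median change of 0.25. The largest rise of all genes was that of the carbonyl reductase Cbr3, from 6.49 (5.71 to 7.69) with siControl to 12.27 (12.01 to 12.84) with siKeap1-1. This is a 59.5-fold higher signal (log2 change 5.90, SE 0.20, adjusted p = 6.84e-16), and the highest siControl liver lay far below the lowest siKeap1-1 liver. Its neighbour in the family, Cbr1, was already bright with siControl at 11.65 (11.38 to 11.83) and reached 13.43 (13.32 to 13.65), a rise of 1.86 (SE 0.084, adjusted p = 8.79e-14). Nqo1, the quinone reductase most often used as a readout of Nrf2, went from 9.03 (8.71 to 9.42) to 11.20 (10.98 to 11.45), or 4.66-fold (adjusted p = 8.79e-14). Blvrb, a biliverdin and flavin reductase, rose by 1.62 (SE 0.084, adjusted p = 1.02e-12), and it too had no overlap between the groups. The prostaglandin reductase Ptgr1 rose by 1.00 (SE 0.29) with overlap and the epoxide hydrolase Ephx1 by 0.80 (SE 0.093) without, and the aldo-keto reductases Akr1c19, Akr1b8, Akr1c13, Akr1a1 and Akr7a5 rose by 0.74, 0.57, 0.27, 0.25 and 0.21. The rises of this list thus spanned the range from 0.21 to 5.90 on the log2 scale.

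Glutathione S-transferases, which couple glutathione to electrophiles, rose in 11 of 21 measured genes and fell in 0, with a median of 0.23. On the brightest probe sets Gsta2 rose most, going from 11.21 (10.91 to 11.97) with siControl to 13.78 (13.34 to 13.94) with siKeap1-1, a rise of 2.45 (SE 0.13, adjusted p = 2.53e-12). The mu class genes Gstm4 and Gstm3 rose by 2.01 (SE 0.14) and 2.00 (SE 0.19), and the microsomal Mgst3 by 1.62 (SE 0.17), each without overlap between the groups. A second, dimmer probe set of Gstm3 rose by 3.91 (SE 0.32, adjusted p = 1.06e-08). Gsta4 and Gstm2 rose by 1.35 (SE 0.20) and 1.34 (SE 0.17). Smaller rises were those of Gstm1, from 13.98 (13.77 to 14.15) to 14.73 (14.67 to 14.79), and of Gstp1, from 14.70 (14.64 to 14.81) to 14.82 (14.78 to 14.88). These signals are near the top of the scale, and how far this limits the rises was not tested. The members of this family are close in sequence, and how far a probe set also reads a related transcript was not tested.

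Genes that make and recycle glutathione rose in 7 of 16 cases and fell in 0, with a median of 0.31. The gastrointestinal glutathione peroxidase Gpx2 went from a dim 5.23 (4.80 to 5.90) with siControl to 8.23 (7.30 to 9.14) with siKeap1-1, a rise of 2.96 (SE 0.21, adjusted p = 6.4e-10). Slc1a1, a carrier for glutamate and cysteine, rose by 2.24 (SE 0.24, adjusted p = 1.03e-06) on its brightest probe set, while its other probe sets changed by 0.41 and 0.006, neither of them called. The catalytic subunit of glutamate cysteine ligase, Gclc, rose by 0.97 (SE 0.13) and its modifier subunit Gclm by 0.37 (SE 0.080), and the groups overlapped in both, while a second probe set of Gclc rose by 1.84. Glutathione reductase (Gsr) rose by 0.57 (SE 0.074) without overlap, and glutathione synthetase (Gss) by 0.55 (SE 0.12) with overlap. The cystine carrier Slc7a11, a target of Nrf2 in many cells, stayed among the dimmest genes in both groups, with 2.58 (2.45 to 2.85) with siControl and 2.73 (2.51 to 3.26) with siKeap1-1 (adjusted p = 0.38).

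Thioredoxin, peroxiredoxin and dismutase genes rose in 4 of 16 cases and fell in 0, with a median of 0.0723. Sulfiredoxin (Srxn1), which reactivates oxidized peroxiredoxins, went from 10.39 (10.10 to 10.65) to 12.39 (11.99 to 12.65), a rise of 1.97 (SE 0.094, adjusted p = 2.44e-13), and its other 3 probe sets rose by 1.71 to 2.05. Thioredoxin reductase (Txnrd1) and thioredoxin (Txn1) rose by 0.53 (SE 0.056) and 0.21 (SE 0.042), each without overlap. Genes that supply NADPH were near the background, with 1 higher (Tkt, 0.38) and 1 lower (Nadk, -0.25) of 14. Genes of heme breakdown and iron handling were as well, with 1 of 16 higher. This was the iron exporter Slc40a1 (0.28, SE 0.060). Heme oxygenase (Hmox1), often named with Nrf2, had a median of 8.94 (8.55 to 9.74) with siControl and of 8.99 (7.04 to 9.44) with siKeap1-1 (difference -0.21, SE 0.29, adjusted p = 0.73).

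**Figure D2:**
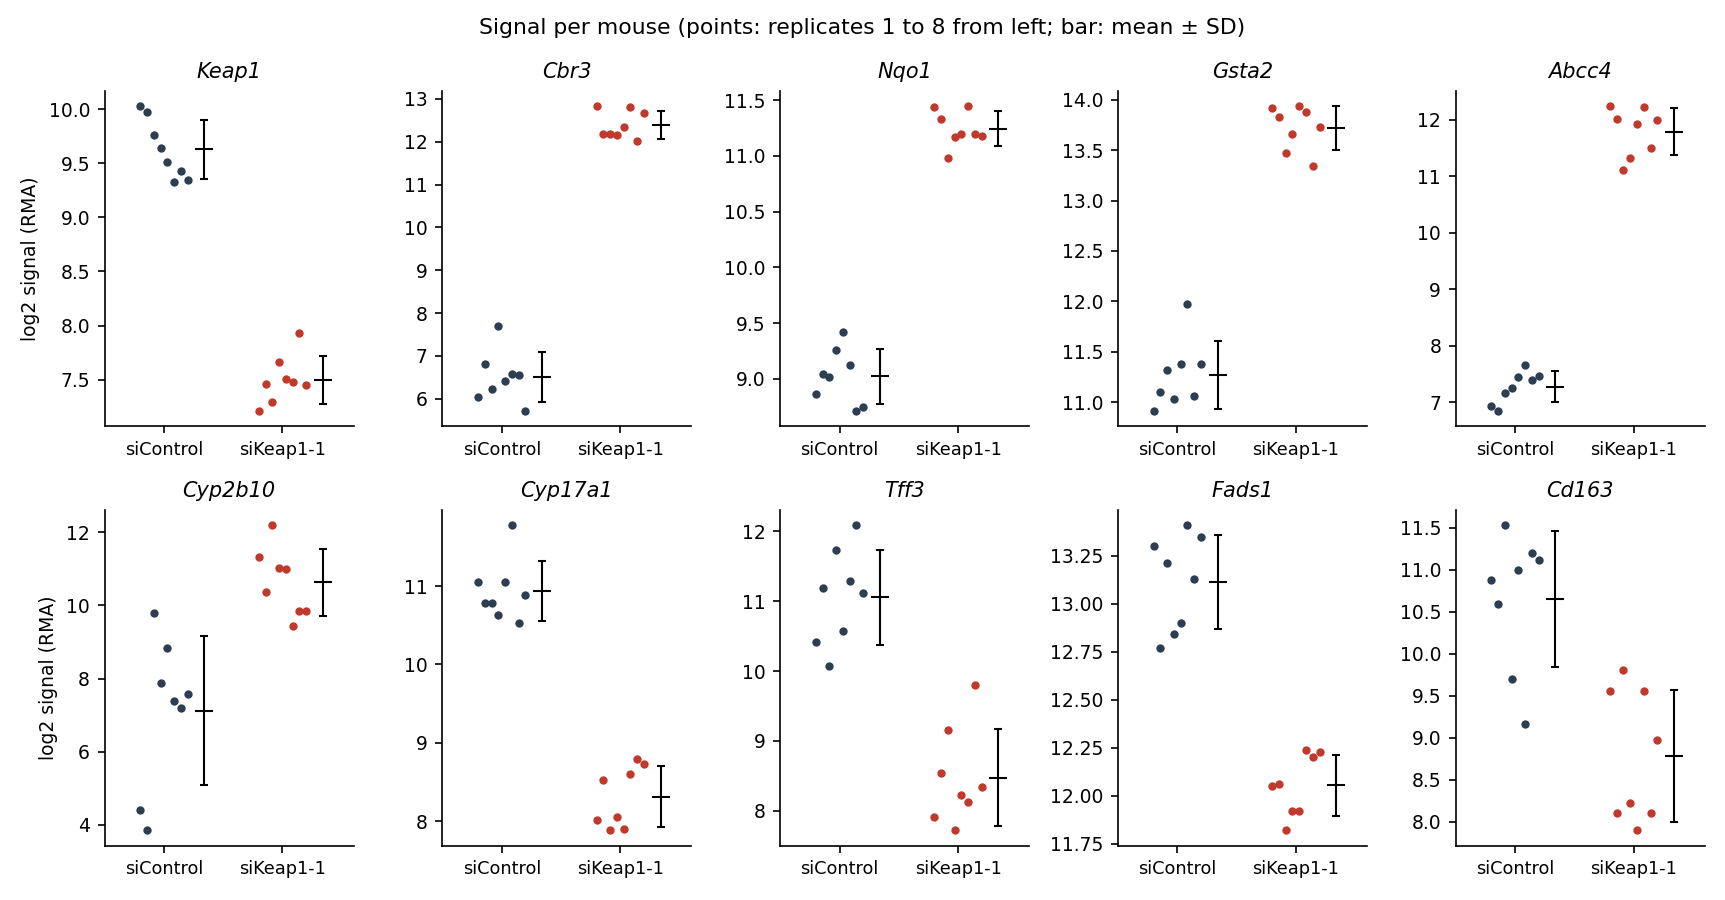
Points give the log2 signal of each mouse for 10 named genes with siControl (dark) and siKeap1-1 (red), and the bar beside them gives the mean ± SD (n = 8 mice per group). For Keap1, Cbr3, Nqo1, Gsta2, Abcc4, Cyp17a1, Tff3 and Fads1 the groups stand apart, while Cyp2b10 and Cd163 overlap.

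Efflux transporters, which carry conjugates out of the cell, rose in 8 of 16 measured genes and fell in 1, and their median of 0.44 was the highest of the 42 lists examined. Abcc4 (Mrp4), a carrier of the sinusoidal membrane, went from 7.33 (6.84 to 7.65) with siControl to 11.96 (11.11 to 12.25) with siKeap1-1, which is 23.0-fold (log2 change 4.52, SE 0.18, adjusted p = 8.43e-15). Abcc12, a relative of unsettled substrate, went from 4.99 (3.64 to 6.35) to 9.31 (8.51 to 9.73), a rise of 4.20 (SE 0.26, adjusted p = 4.12e-11), and a dimmer probe set rose by 1.05. Abcc3, another carrier of the sinusoidal membrane, rose by 1.14 (SE 0.14) and the canalicular carriers Abcg2 and Abcc2 by 0.57 (SE 0.091) and 0.41 (SE 0.069), all without overlap. The partners in canalicular sterol export, Abcg8 and Abcg5, rose together by 0.59 (SE 0.13) and 0.46 (SE 0.076). Abcc1 rose by 0.53 (SE 0.14), and Abcc6 was the member that fell, by 0.27 (SE 0.074).

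UDP-glucuronidation genes rose in 7 of 11 cases (63.6%), the highest share of any list, and in all 7 the groups did not overlap. The changes were small and even in size. Ugdh, which makes the UDP-glucuronate that the pathway consumes, went from 12.90 (12.82 to 13.02) to 13.62 (13.45 to 13.73), a rise of 0.68 (SE 0.061). The transferases Ugt2b35, Ugt2b5, Ugt2b36 and Ugt2b34 rose by 0.69, 0.30, 0.26 and 0.22. The sugar nucleotide carrier Slc35d1 and the UDP-glucose synthase Ugp2 rose by 0.52 and 0.38. Carboxylesterases, which split esters of drugs and lipids, rose in 4 of 11 cases and fell in 0, led by Ces1g with 1.23 (SE 0.10, adjusted p = 1.59e-08).

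Cytochromes P450 of drug metabolism rose in 8 of 35 cases and fell in 1, with a median of 0.0493. Cyp2b10, the classical target of the nuclear receptor CAR, had the widest spread of the strong rises. It ranged from 3.85 to 9.80 with siControl (median 7.49) and from 9.44 to 12.20 with siKeap1-1 (median 10.69). The rise of 3.52 (SE 0.65, adjusted p = 0.0011) was 11.4-fold, and the siControl liver at 9.80 lay inside the siKeap1-1 range. Its 2 other probe sets rose by 3.16 and 3.57. The rise was 5.28 among replicates 1 to 3 of both groups, where siControl held both its 2 lowest livers and its highest, and 2.46 among replicates 4 to 8. Cyp2b9 rose by 1.67 (SE 0.46) with overlap and Cyp2g1 by 1.67 (SE 0.18) without, while Cyp1a2 and Cyp1a1 rose by 0.73 each. Cyp2c38 was the member that fell, by 0.88 (SE 0.27, adjusted p = 0.041). Neither CAR (Nr1i3, 0.49, SE 0.20, adjusted p = 0.14) nor PXR (Nr1i2, -0.21, SE 0.091, adjusted p = 0.16) was called. Aldehyde and alcohol dehydrogenases had 1 higher member of 20, the aldehyde oxidase Aox1 (0.75, SE 0.079, no overlap), and 2 lower ones, Aldh4a1 (-0.36) and Aldh3a2 (-0.30).

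The sequences upstream of these genes were searched for the core of the antioxidant response element, written TGACNNNGC, on both strands of the 250 bases before each start in the RefSeq promoter table of build GRCm38.p6, in which 10.2% of all 32851 promoters held it. A promoter was found for 14368 of the genes, and 13.4% of these had the motif in at least 1 promoter. The share was 16.6% for genes called higher, 14.2% for genes called lower and 13.2% for genes not called. Among genes that rose by over 2-fold it was 11.7% (9 of 77). The share among the strongest rises was thus near that of all genes with a promoter, with no test made, and a motif farther away was not looked for. Of 54 called and rising genes chosen for naming that had a promoter, 6 held it. Windows of 5 of these, in the order of their rises from 4.52 for Abcc4 to 0.51 for Psmb5, follow to show the letters around it, with the motif in capitals. Where the motif lies on the opposite strand, its reverse complement is in capitals, and the window of Ugdh holds a match on each strand.
Abcc4, chr14:118676932-118676994, minus strand: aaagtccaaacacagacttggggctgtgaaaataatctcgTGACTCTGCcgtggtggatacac
Abcc4, chr14:118706220-118706284, minus strand: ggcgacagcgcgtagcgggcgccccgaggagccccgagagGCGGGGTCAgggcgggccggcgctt
Ugdh, chr5:65435926-65436014, minus strand: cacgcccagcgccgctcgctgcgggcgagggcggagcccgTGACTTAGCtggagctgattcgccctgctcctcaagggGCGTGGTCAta
Txnrd1, chr10:82859074-82859162, plus strand: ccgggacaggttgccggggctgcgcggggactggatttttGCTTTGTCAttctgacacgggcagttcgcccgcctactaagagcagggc
Slc35d1, chr4:103215229-103215317, minus strand: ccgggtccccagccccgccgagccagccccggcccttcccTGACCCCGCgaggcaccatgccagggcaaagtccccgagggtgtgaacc
Psmb5, chr14:54617996-54618082, minus strand: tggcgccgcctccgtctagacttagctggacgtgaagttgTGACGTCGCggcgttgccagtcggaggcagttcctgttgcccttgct
These windows show where the letters occur and not that Nrf2 binds there. Abcc4 was the only gene with a rise of over 4-fold that held the motif, of 19 such genes with a promoter.

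Several of the largest rises lay outside the detoxification lists, some of them in genes that are dim in control liver. Dppa2, known from pluripotent cells, went from 3.08 (2.64 to 4.89) to 6.99 (5.58 to 8.12), a rise of 3.52 (SE 0.41). The ubiquitin protease gene Usp50 went from 5.52 (5.31 to 6.58) to 9.19 (7.08 to 10.44), a rise of 3.47 (SE 0.35). Both had a dimmer second probe set that was not called (0.12 and -0.0047), so these rises rest on a single probe set each. Tafa2, a secreted chemokine-like protein, rose by 3.35 (SE 0.34), Tinag, a basement membrane antigen of the kidney tubule, by 3.04 (SE 0.45), and Meig1, a gene of spermatogenesis, by 2.81 (SE 0.32), none of them with overlap between the groups. The acute phase protein Orm3 rose by 2.70 (SE 0.37) and was the only called member among 22 acute phase genes. The presynaptic adhesion gene Nrxn2 went from 5.99 (5.66 to 6.24) to 8.68 (7.83 to 9.29), a rise of 2.68 (SE 0.17), while its dimmer probe set differed by 0.15 and was not called. Serpinb1a, an inhibitor of neutrophil proteases, rose by 2.62 (SE 0.43) with overlap. Themis, a regulator of T cell receptor signalling, went from 8.46 (5.99 to 9.77) to 10.85 (10.41 to 11.00), and all 4 of its probe sets rose. Pirin (Pir), an iron-binding cofactor, was chosen after its values were seen, and rose by 1.28 (SE 0.082, adjusted p = 6.79e-11) without overlap.

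The largest fall was that of Cyp17a1, the 17-alpha-hydroxylase of androgen and glucocorticoid synthesis, which mouse liver expresses. It went from 10.83 (10.53 to 11.78) with siControl to 8.29 (7.88 to 8.79) with siKeap1-1, and the mean fell by 2.62 (SE 0.34, adjusted p = 1.54e-05) without overlap. Of the other steroid genes, Hsd3b2 fell by 0.47 (SE 0.11) and Cyp7b1 rose by 0.34 (SE 0.094), so that 3 of 15 were called. With the 18S signal as a covariate Cyp17a1 was called by limma (adjusted p = 0.0037), but Hsd3b2 (0.29) and Cyp7b1 (0.35) were not. The changes in that fit were, in the same order, -2.54, -0.31 and 0.26. Abcd2, a peroxisomal carrier of very long fatty acids, fell by 2.01 (SE 0.39), and a second of its probe sets by 2.04, while 2 further ones differed by -0.68 and 0.0036 and were not called. Further falls without overlap were those of Mmd2 (-1.75, SE 0.26), the T cell costimulator Icos (-1.54, SE 0.20), the adhesion receptor Adgrv1 (-1.42, SE 0.26) and the vasopressin receptor Avpr1a (-1.26, SE 0.22). Glra3, Vmn1r51, Ccdc25 and Gm6958 fell by 2.12, 1.44, 1.33 and 1.27 with overlapping groups. Dimmer probe sets that were not called differed by -0.29 and 0.11 for Icos, by 0.0074 for Adgrv1 and by -0.0044 for Glra3. The fall of Gm6958 moved with the 18S signal, being -2.03 among replicates 4 to 8 of both groups and -0.0090 among replicates 1 to 3. Other named genes differed between these replicate sets as well. In the same order, examples were Fgfr4 (-0.67 and -0.11), Cox7c (-0.56 and -0.15), Psmd1 (0.61 and 0.15) and Ccnd1 (-1.27 and -0.625). Aldh4a1 differed the other way (-0.12 and -0.75), and the part of the 18S signal in these was not tested.

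Cholesterol synthesis genes were the list with the lowest median, -0.64, and all 20 measured members were below 0, and 6 were called. These were Lss (-1.06, SE 0.33), Msmo1 (-1.01, SE 0.32), Pmvk (-0.98, SE 0.30), Sc5d (-0.68, SE 0.19), Stard4 (-0.65, SE 0.16) and squalene synthase, Fdft1 (-0.63, SE 0.14). The spread between siKeap1-1 mice was wide, as Fdps shows, with 10.53 (8.57 to 11.82) against 12.11 (11.72 to 12.68) with siControl (adjusted p = 0.054). For Lss the siKeap1-1 replicates 2, 4, 5 and 7 were at 9.98, 10.01, 10.49 and 10.24. The other siKeap1-1 livers were at 11.46 to 11.75, against 11.48 to 12.39 with siControl. Replicates 2, 4, 5 and 7 were also the lowest for Pmvk and Sc5d, but not all of them for Msmo1. What sets these livers apart was not tested. The master regulator of these genes, Srebf2, differed by -0.41 (SE 0.14, adjusted p = 0.061). With the 18S signal as a covariate 0 of the 20 were called by limma, although the median stayed at -0.57, while 17 of the 20 had an unadjusted p under 0.05 without it.

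Fatty acid synthesis and desaturation genes fell in 8 of 22 cases and rose in 0, with a median of -0.40. With the 18S signal as a covariate 4 of the 22 were called lower (median -0.37), and among replicates 1 to 3 of both groups 2. Elovl2 was the 1 member called in each of the 5 further fits described below. The desaturase Fads1, which acts in the making of long polyunsaturated fatty acids, went from 13.17 (12.77 to 13.41) to 12.06 (11.82 to 12.24), and the mean fell by 1.06 (SE 0.16, adjusted p = 7.87e-05) without overlap. Fads1 had an adjusted p of 0.067 among replicates 1 to 3 of both groups. Fads2, the other desaturase of this pathway, fell by 0.77 (SE 0.14) and its elongases Elovl2 and Elovl5 by 0.49 and 0.21. Acsl3, which activates long-chain fatty acids, fell by 1.21 (SE 0.20) without overlap. The lipid droplet hydrolase Pnpla3 fell by 1.87 (SE 0.58, adjusted p = 0.043), with siControl livers spread from 5.23 to 10.28. Pnpla3 was not called with the 18S covariate (-1.47, adjusted p = 0.40), nor was Elovl6 (-1.04, adjusted p = 0.21). Elovl6 and the glucose-sensing factor Mlxipl (ChREBP) fell by 1.13 (SE 0.30) and 0.50 (SE 0.11). Fatty acid synthase (Fasn) was at 12.87 (11.05 to 13.33) with siControl and at 11.11 (9.94 to 12.21) with siKeap1-1, a difference of -1.41 that its SE of 0.48 left uncalled (adjusted p = 0.067). Neither Acaca (-0.61, SE 0.22, adjusted p = 0.081) nor Srebf1 (-1.03, SE 0.45, adjusted p = 0.16) was called, and Scd1 differed by -0.15 (SE 0.066, adjusted p = 0.16) on a probe set at 14.42 in the mean, near the top of the scale, and by -1.03 (SE 0.61, adjusted p = 0.33) on a dimmer one.

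Genes of fatty acid uptake and lipid droplets went both ways, with 6 higher and 2 lower of 30. The fatty acid receptor Cd36 went from 9.90 (9.01 to 10.42) to 11.26 (10.83 to 11.74), a rise of 1.42 (SE 0.17, adjusted p = 3.16e-06) without overlap, and its 2 other probe sets rose by 1.42 and 1.63. Lipoprotein lipase (Lpl) rose by 0.91 (SE 0.17) without overlap, and the droplet protein Cidea by 2.39 (SE 0.54) with overlap. Mogat1 and Mogat2, which rebuild diglycerides, rose by 1.04 (SE 0.28) and 0.68 (SE 0.21), and Fitm1 by 0.81 (SE 0.14). Endothelial lipase (Lipg) fell by 0.93 (SE 0.20) and Lpin2 by 0.31 (SE 0.075). With the 18S signal as a covariate Cd36 was called by limma (adjusted p = 0.0015), but Cidea (0.23), Mogat1 (0.19) and Lipg (0.085) were not. The changes in that fit were, in the same order, 1.36, 1.78, 0.99 and -0.91. Fatty acid oxidation and ketogenesis showed 1 call of 26 (3.85%), Abcd2. Of 21 apolipoprotein and assembly genes 3 fell slightly, Apom (-0.27), Abca1 (-0.24) and Apof (-0.16).

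Bile acid genes had 2 higher members of 20, Acox2 (0.57, SE 0.086, no overlap) and Cyp7b1, and 2 lower ones, Fgfr4 (-0.46, SE 0.10) and Cyp27a1 (-0.28, SE 0.060). Cyp7a1, the rate-limiting enzyme, was at 11.90 (11.28 to 13.03) with siControl and at 11.86 (11.03 to 12.62) with siKeap1-1 (adjusted p = 0.81). Among 32 genes of glycolysis, gluconeogenesis and glycogen, 4 rose and 5 fell. The risers included glycogen genes, namely the phosphorylase kinase subunit Phkb (0.63, SE 0.081, no overlap), the branching enzyme Gbe1 (0.62, SE 0.16) and glycogenin, Gyg (0.45, SE 0.083). Among those that fell were the coactivator Ppargc1a (-0.56, SE 0.13) and the liver glycogen synthase Gys2 (-0.41, SE 0.12). With the 18S signal as a covariate Phkb and Gyg were called by limma (adjusted p = 0.00024 and 0.034), but Gbe1 (0.11) and Ppargc1a (0.087) were not. The changes in that fit were, in the same order, 0.75, 0.45, 0.68 and -0.60. Igfbp2 (-1.08, SE 0.31) and Pik3r1 (-0.32, SE 0.10) fell among 22 insulin and IGF genes, and Cbs (-0.46, SE 0.094) and Bhmt2 (-0.18, SE 0.056) among 17 genes of methionine and serine metabolism.

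Proteasome subunits rose in 6 of 39 cases (15.4%) and fell in 0, with small changes. Psmb5, which carries the chymotrypsin-like activity, went from 12.49 (12.39 to 12.56) to 13.00 (12.89 to 13.15), a rise of 0.51 (SE 0.052, adjusted p = 3.89e-07) without overlap. The regulatory subunits Psmd1 and Psmd5 rose by 0.44 and 0.33. In the endoplasmic reticulum stress list 3 of 26 rose, the chaperone partners Sdf2l1 (0.96, SE 0.24), Manf (0.61, SE 0.19) and Pdia6 (0.45, SE 0.12). Circadian clock genes fell in 6 of 18 cases and rose in 0, with Per2 at -0.72 (SE 0.18), Bhlhe40 at -0.64 (SE 0.19), Per3 at -0.51 (SE 0.12), Cry2 at -0.37 (SE 0.10), Hlf at -0.36 (SE 0.088) and Tef at -0.27 (SE 0.071). None of the endoplasmic reticulum or clock genes was called with the 18S signal as a covariate, when the medians of these lists were 0.16 and -0.16. Cyclin D1 (Ccnd1) fell by 1.03 (SE 0.23) without overlap and E2f1 rose by 0.42 (SE 0.13), as the only calls among 29 cell cycle genes. Of 23 interferon-stimulated genes 3 fell, Stat2 (-0.66, SE 0.11), Ifi27 (-0.50, SE 0.098) and Rtp4 (-0.45, SE 0.14). Of 42 respiratory chain genes 1 fell, Cox7c (-0.41, SE 0.13), and of 37 ribosomal protein genes 2 rose, Rps19 (0.25, SE 0.060) and Rpsa (0.20, SE 0.062). The zonation lists went both ways, with 2 higher and 2 lower of 17 pericentral genes and 2 higher and 1 lower of 14 periportal genes. The ammonium carrier Rhbg rose by 1.11 (SE 0.18) and the Wnt feedback gene Rnf43 fell by 0.72 (SE 0.12), both pericentral and without overlap.

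**Figure D3:**
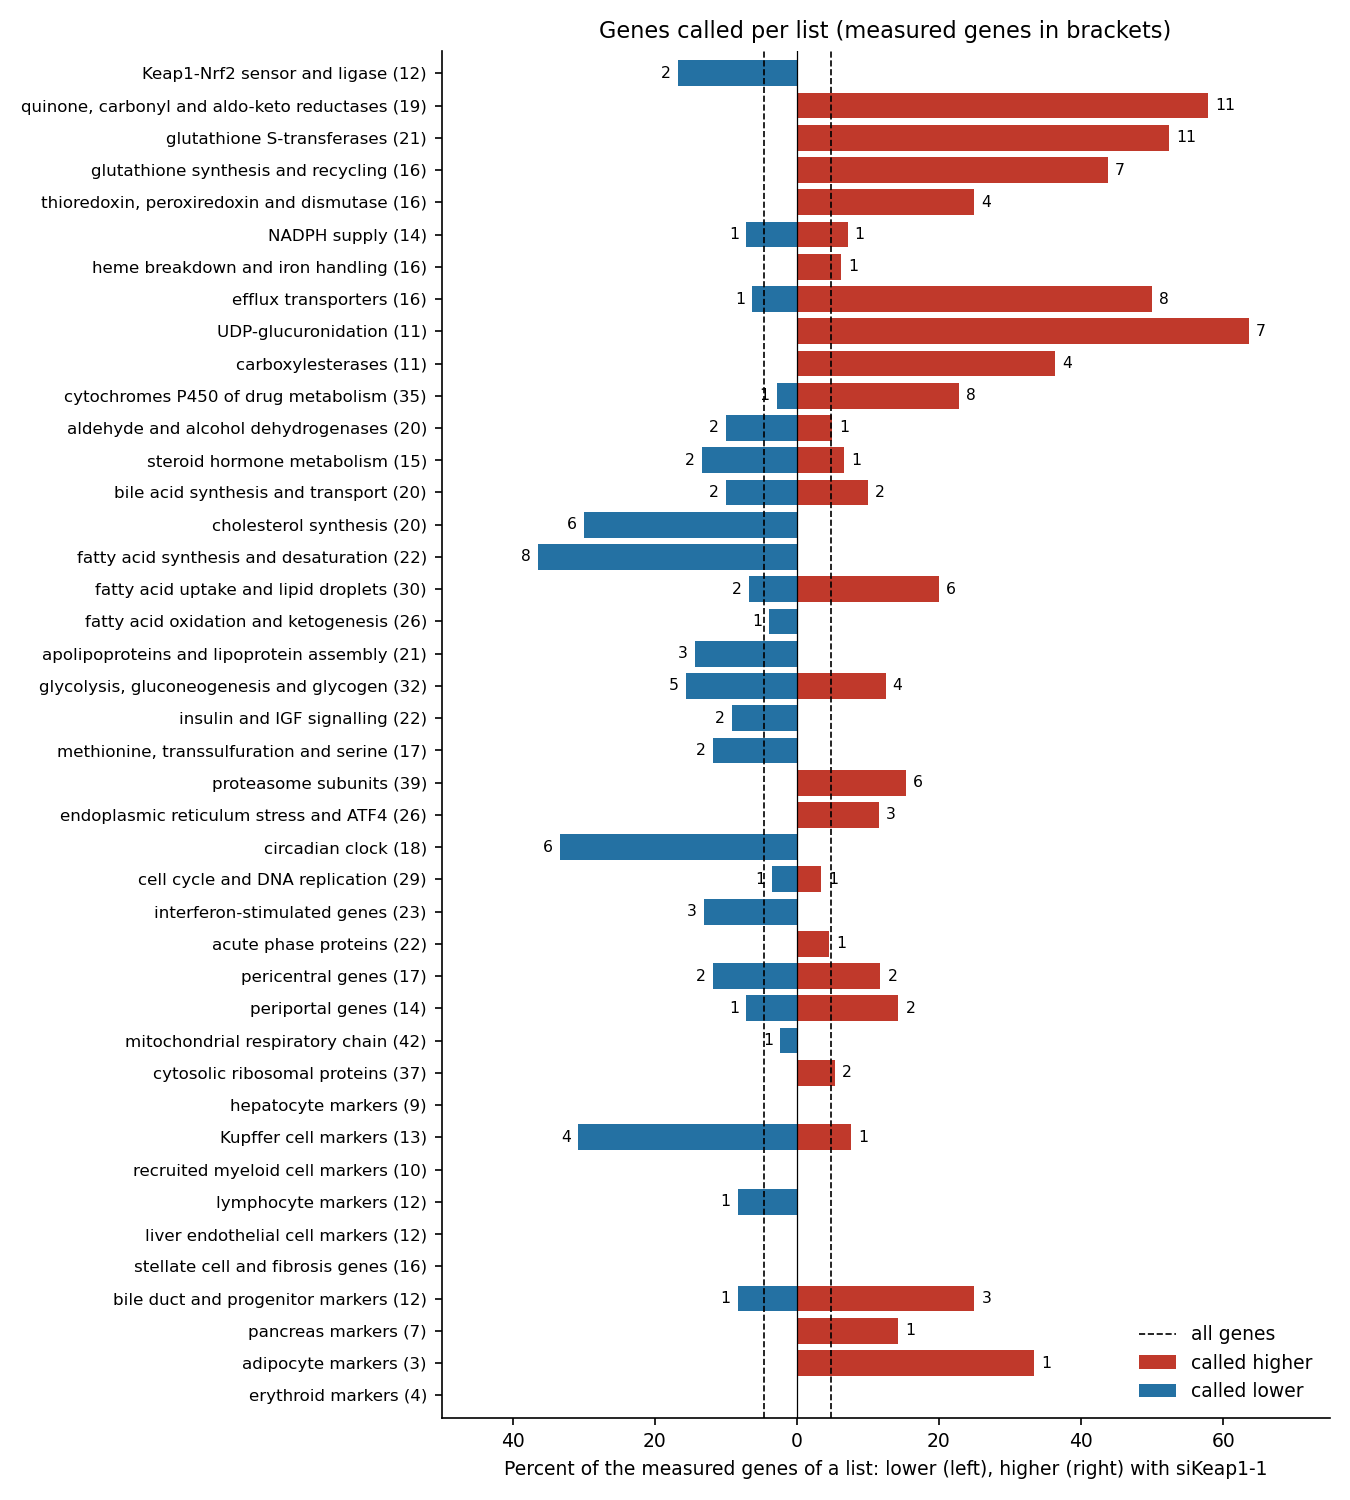
Bars give the percent of the measured genes of each of 42 lists that were called lower (left, blue) or higher (right, red) with siKeap1-1, with the number of genes at the end of each bar. Dashed lines mark the shares among all genes, 4.67% lower and 4.81% higher, and the bars of UDP-glucuronidation genes, reductases, glutathione S-transferases and efflux transporters extend furthest to the right. The lines are not matched for brightness, and of the 4549 brightest genes 340 were called lower and 355 higher.

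Markers of liver cell types were compared as well, and in whole tissue fewer cells of a type and less RNA per cell cannot be told apart. Hepatocyte markers showed 0 calls by limma among 9 (2 with an unadjusted p under 0.05), and their summed linear signal was 187000 to 195000 with siKeap1-1 and 193000 to 200000 with siControl. Kupffer cell markers fell in 4 of 13 cases and rose in 1. The hemoglobin scavenger receptor Cd163 went from 10.94 (9.17 to 11.53) to 8.60 (7.90 to 9.81), and the mean fell by 1.87 (SE 0.34, adjusted p = 0.00079), and the phosphatidylserine receptor Timd4 from 7.66 (6.46 to 8.36) to 6.06 (5.22 to 7.30), and the mean fell by 1.52 (SE 0.29, adjusted p = 0.0015). The ranges overlapped in both, and in each 2 siControl livers were much lower than the rest, replicates 4 and 6. Folr2 and Vsig4 fell by 0.81 (SE 0.21) and 0.60 (SE 0.16). With the 18S signal as a covariate limma called Cd163 and Timd4 (adjusted p = 0.029 and 0.023) but not Folr2 and Vsig4 (0.29 and 0.155). The changes in that fit were, in the same order, -1.89, -1.69, -0.64 and -0.62. Other defining markers of the same cells were not called, with Clec4f at -0.13 (SE 0.17) and Marco at 0.69 (SE 0.36). The summed signal of the Kupffer list was 33600 to 47700 with siKeap1-1 and 36400 to 52300 with siControl.

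Recruited myeloid, endothelial, stellate and erythroid markers had 0 calls by limma among 10, 12, 16 and 4 genes, with 2, 2, 4 and 1 of them at an unadjusted p under 0.05. The widest differences on the brightest probe sets of these lists, none of them called, were those of the macrophage elastase Mmp12 (0.94), the hyaluronan receptor Lyve1 (0.58), the collagen chain Col1a1 (0.85) and the erythroid heme synthase Alas2 (-0.34). A second, dimmer probe set of Lyve1 rose by 0.89 (SE 0.18, adjusted p = 0.0026). Among 12 lymphocyte markers Cd4 fell (-0.55, SE 0.11), and the summed signal of this list was low at 1100 to 1560 with siKeap1-1 and 1000 to 2150 with siControl. The rise of Themis and the fall of Icos therefore stood beside lymphocyte markers of which 1 was called, and the part of lymphocytes in them was not tested. In the bile duct and progenitor list Anxa13, Ly6d and Sox9 rose and Tff3 fell, among 12. The trefoil factor Tff3 went from 11.15 (10.07 to 12.09) to 8.28 (7.72 to 9.80), and the mean fell by 2.58 (SE 0.38, adjusted p = 9.74e-05) without overlap, while Ly6d rose by 2.00 (SE 0.36) and the transcription factor Sox9 by 0.87 (SE 0.13). The summed signal of this list was 3950 to 5980 with siKeap1-1 and 3790 to 7200 with siControl. Of 7 pancreas and 3 adipocyte markers 1 each rose, Cpa1 (0.31) and Retn (0.33).

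The comparison of the Keap1 siRNAs with each other, which does not use siControl, showed which of these changes differed with the stronger siRNA. It called 44 of 18194 genes (0.242%), 22 higher and 22 lower with siKeap1-1, and 27 of them were also called against siControl. The genes named from this comparison were chosen after their values were seen. Anxa13, an annexin of epithelial membranes, differed most, with 6.48 (5.80 to 7.46) with siControl, 9.82 (9.08 to 10.38) with siKeap1-1 and 7.61 (6.84 to 7.90) with siKeap1-2. The difference between the siRNAs was 2.27 (SE 0.20, adjusted p = 1.05e-06). Nrxn2 was 1.51 higher with siKeap1-1 than with siKeap1-2 (SE 0.17, adjusted p = 5.44e-05), Abcc12 was 1.32 higher (SE 0.26, adjusted p = 0.030) and Abcc4 1.04 higher (SE 0.18, adjusted p = 0.0087). For Anxa13 and Nrxn2 no siKeap1-2 liver reached the siKeap1-1 range, whereas for Abcc4 and Abcc12 the highest siKeap1-2 livers did. The G protein gene Gnai1 was 0.97 higher (SE 0.20, adjusted p = 0.042) and the nucleotide synthase Ctps 0.64 higher (SE 0.11, adjusted p = 0.0075).

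Further genes differed between the siRNAs without a call between siKeap1-1 and siControl. Wfdc2, a secreted protease inhibitor, was at 8.26 (7.80 to 8.85) with siControl, at 8.51 (8.17 to 8.80) with siKeap1-1 and at 9.30 (9.12 to 9.65) with siKeap1-2. It was lower with siKeap1-1 than with siKeap1-2 by -0.86 (SE 0.12, adjusted p = 0.0012), and its difference from siControl was 0.26 (SE 0.12, adjusted p = 0.19). The tight junction gene Marveld3 was 5.83 (5.27 to 6.45) with siControl, 5.36 (4.06 to 6.10) with siKeap1-1 and 7.16 (6.64 to 7.96) with siKeap1-2, and its direct difference was -1.87 (SE 0.25, adjusted p = 0.00069). The class I gene H2-Q2 differed by -1.61 (SE 0.24, adjusted p = 0.0018) and the epithelial gene Lad1 by -0.88 (SE 0.15, adjusted p = 0.0079), neither of them called between siKeap1-1 and siControl. Trak1, a mitochondrial transport adaptor, was lower with siKeap1-1 than with both other groups, by -0.82 against siControl (SE 0.092, adjusted p = 1.67e-06) and by -0.64 against siKeap1-2 (SE 0.092, adjusted p = 0.0013).

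Several of the strong rises against siControl had no call between the siRNAs, and their values against siControl, which share the control livers, were larger with siKeap1-1 for some and with siKeap1-2 for others. Cbr3 was 5.90 higher than siControl with siKeap1-1 and 5.12 with siKeap1-2, and the direct difference of 0.77 (SE 0.20) had an adjusted p of 0.16. Nqo1 was 2.22 and 1.91 higher, and the direct difference of 0.31 (SE 0.10) had an adjusted p of 0.28. Gpx2 went the other way, with 2.96 and 3.42 and a direct difference of -0.46 (SE 0.21, adjusted p = 0.51). Slc1a1 was 2.24 and 3.00 higher, with a direct difference of -0.76 (adjusted p = 0.26). Cyp2b10 was 3.52 and 3.60 higher, with a direct difference of -0.086 (SE 0.65, adjusted p = 0.98), whose SE leaves room for a wide range.

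**Figure D4:**
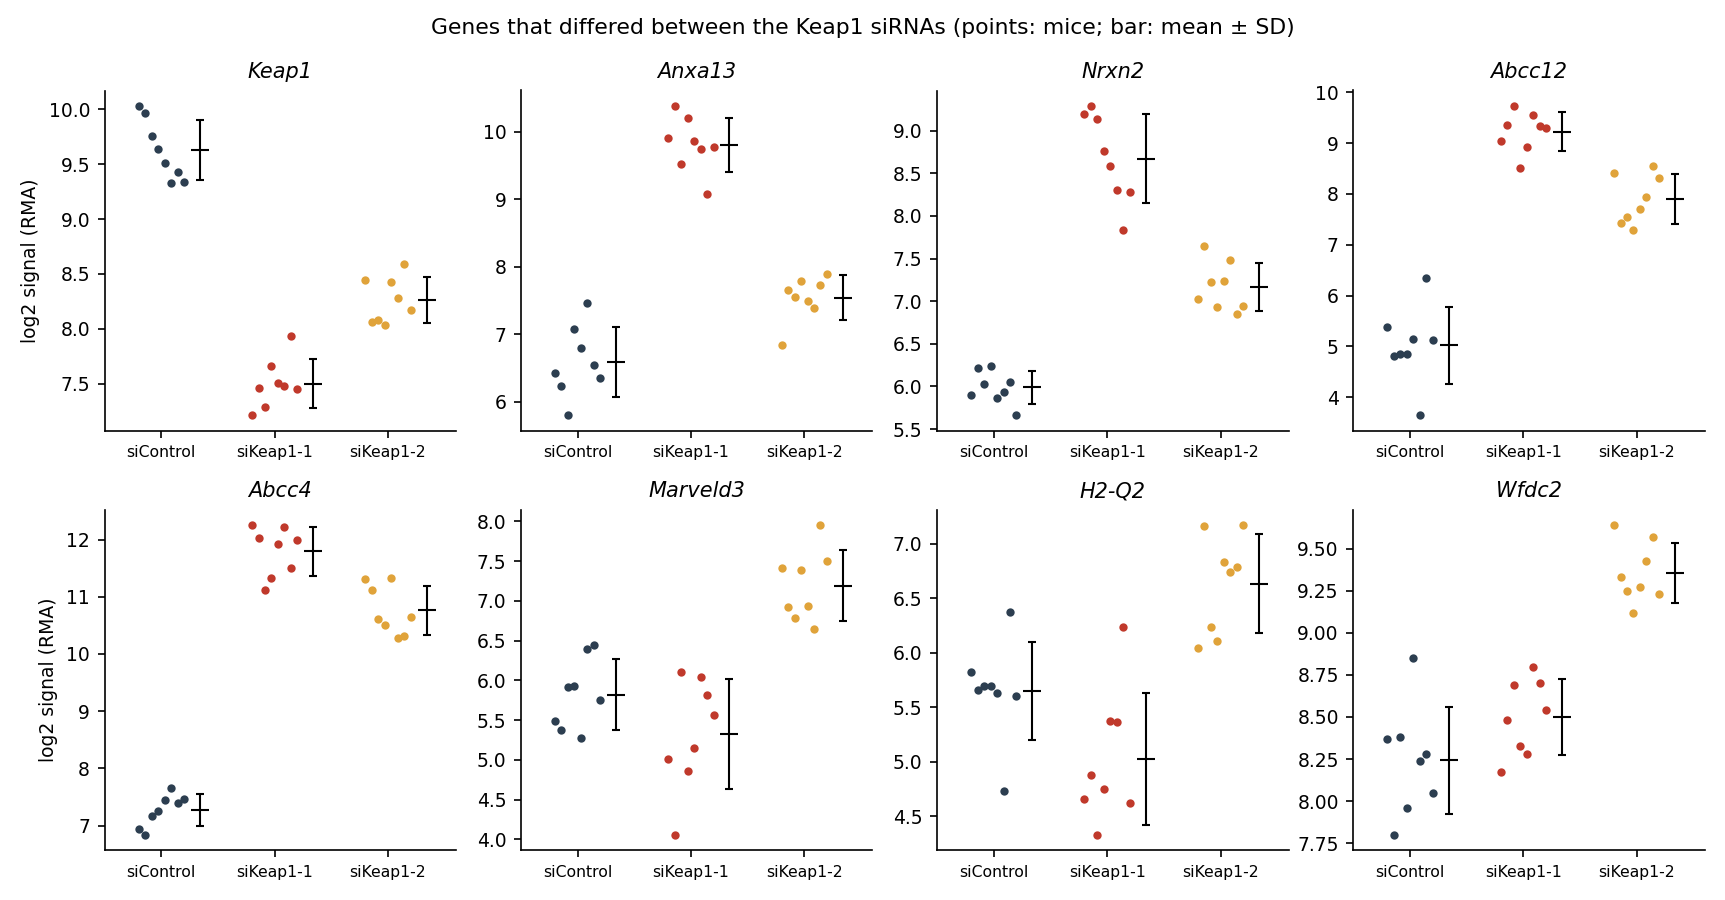
Points give the log2 signal of each mouse for 8 genes that differed between siKeap1-1 (red) and siKeap1-2 (yellow), with siControl (dark) beside them, and bars give the mean ± SD (n = 8 mice per group). Anxa13, Nrxn2, Abcc12 and Abcc4 are highest with siKeap1-1, Keap1 is lowest with siKeap1-1, and Marveld3, H2-Q2 and Wfdc2 have their highest means with siKeap1-2, with overlapping ranges of siKeap1-1 and siControl.

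The calls were set against the 18S signal in 5 further fits, chosen because this signal differed between the groups. Only the fit with a covariate models the signal, and in the 2 fits with siControl replicates 4 to 8 the groups stand apart in it. With the 18S signal as a covariate 528 genes were called, of which 74.8% were higher, and against siControl replicates 1 to 3 alone 622 were called, of which 77.5% were higher. Against siControl replicates 4 to 8 alone 1834 genes were called, of which 685 were higher. Replicates 1 to 3 of both groups gave 359 calls, 263 higher and 96 lower, and replicates 4 to 8 of both groups 1867 calls, 749 higher and 1118 lower. The near-equal numbers of rises and falls among all 16 livers were therefore found in none of these 5 fits. Rises were the majority in the 3 fits with the covariate or with siControl replicates 1 to 3, and falls in the 2 fits with siControl replicates 4 to 8. In all 5 fits and with all livers 169 genes were called, 138 higher and 31 lower, and 72 of them moved by over 2-fold. Among these were 8 genes of the reductase list (with the epoxide hydrolase Ephx1), 7 glutathione S-transferases, 4 genes of UDP-glucuronidation, 3 efflux transporters and 3 cytochromes. Of the list of glutathione synthesis and recycling 4 were among them, namely Gclc, Gpx2, Gpx4 and Slc1a1. Keap1, Nfe2l2, Cyp17a1, Cd163 and Timd4 were among those that were lower. Keap1 itself was lower by -2.60 among replicates 1 to 3 and by -1.84 among replicates 4 to 8, and siControl replicates 1 to 3 had the higher Keap1 signals of their group (9.76 to 10.03 against 9.33 to 9.64). Of the 123 called genes chosen for naming by rule, 0 turned their direction in these fits. They had been called in the same livers, so a kept direction was likely from the start.

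**Figure D5:**
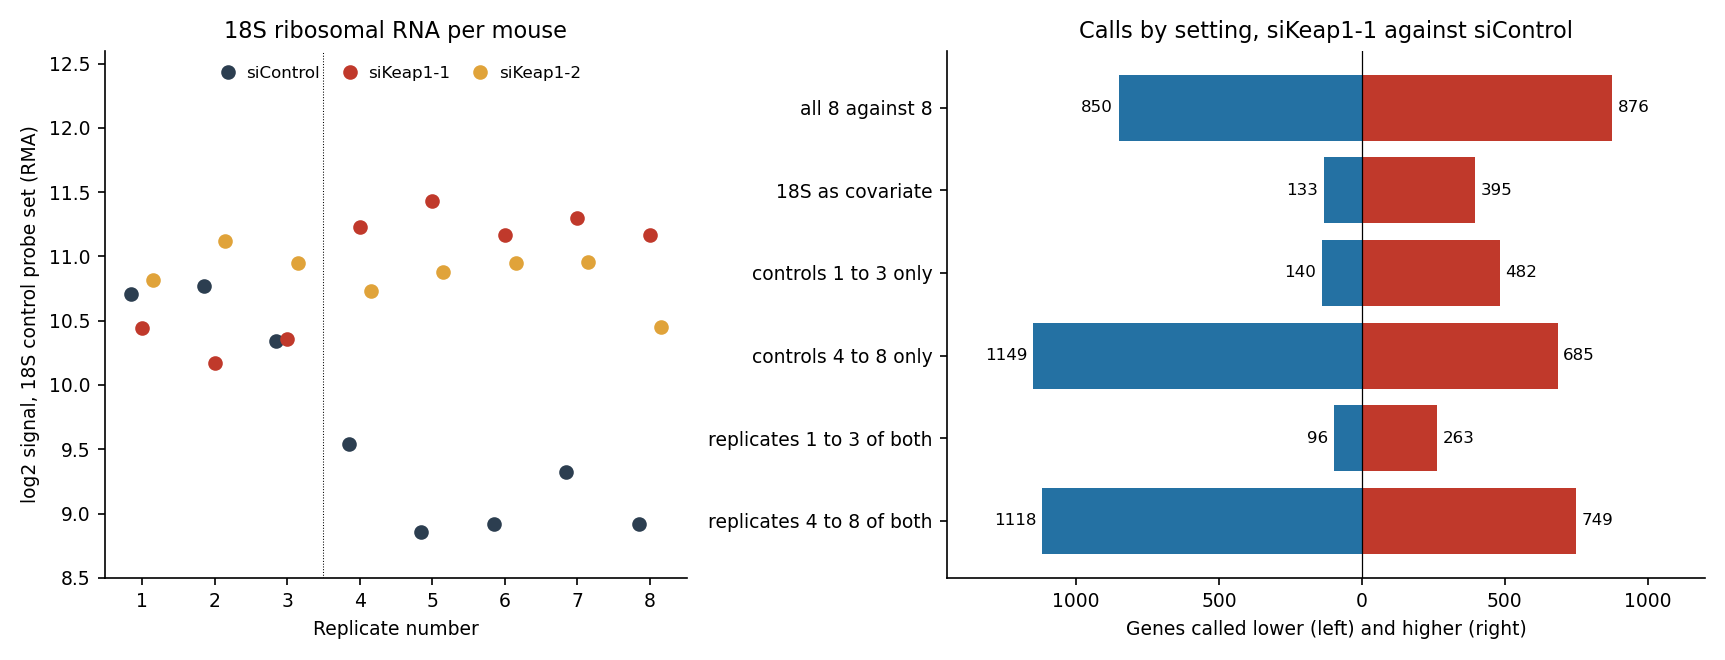
The left panel gives the log2 signal of the 18S control probe set by replicate number in the 3 groups, which lie close together for replicates 1 to 3 and apart for replicates 4 to 8, where siControl is at 8.86 to 9.54 and siKeap1-1 at 11.17 to 11.43. The right panel gives the genes called lower (blue) and higher (red) with siKeap1-1 for all livers and for 5 further fits. These use this signal as a covariate or livers chosen by replicate number.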

How the data were processed

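The deposited values are log2 signals that the authors made with RMA, a procedure that subtracts background, gives all arrays the same distribution and condenses each probe set to a single value. Its version was not given in the sources used here, and the values hold no detection calls. Groups and replicate numbers were taken from the labels. The 64 control probe sets were left out, and 45037 probe sets of the 24 arrays were fitted in a single model of the 3 groups by limma 3.58.1 under R 4.3.3 (functions lmFit, eBayes), with Benjamini-Hochberg adjustment over all of them. Each of 18194 genes was then represented by its brightest probe set, as a mean of the 24 arrays, among the 34945 that name a single gene. The fit was tested on simulated arrays with known changes and independent noise. These held neither the 18S difference nor variation shared between probe sets, and so do not test their effect. The genes, lists and tests were chosen with earlier results of these data known. Named genes are the 15 largest rises and falls among called genes, the 10 with the largest moderated t, up to 4 called members per list, the 5 largest uncalled changes and genes that the study names; other genes printed are further list members, or were chosen after their values were seen. Alternatives covered normalization, moderation, array weights, samples, replicate block, residual component, 18S signal, probe set choice and thresholds, and the fits within replicates 1 to 3 and 4 to 8 were added after seeing the data. The p-values measure only the spread between these samples. Plots used matplotlib 3.10.9 and Python 3.11.15.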

Additional observations from a re-analysis of the deposited data

Results flagged for a closer look

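Of 282 groups of 8 livers checked for the named genes, 13 held a liver far from the others, where chance alone gives about 1 in 20. The number in brackets is the gap of that liver to its nearest neighbour divided by the whole range of the group, with a critical value of 0.526. In the siKeap1-1 group replicate 3 was the highest for Fgfr4 (0.73), Pdia6 (0.671) and Sdf2l1 (0.582) and the lowest for Aldh3a2 (0.531) and Bhmt2 (0.53). Replicate 5 was the lowest for Icos (0.663), replicate 7 the highest for Glrx (0.611) and replicate 2 the highest for Glra3 (0.563). In the siControl group replicate 6 was the highest for Cyp17a1 (0.58) and Gsta2 (0.557) and the lowest for H2-Q2 (0.53), replicate 1 was the lowest for Cyp2g1 (0.556) and replicate 4 the lowest for Cyp2f2 (0.542).

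Other signals lay outside the genes described. The 18S ribosomal RNA probe set, a control, was higher by 1.23 on the log2 scale with siKeap1-1 than with siControl. Among the 932 probe sets that name several genes, 62 were called higher and 52 lower with siKeap1-1 by limma. Among the 9160 that name no gene, 152 were called higher and 473 lower.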

How the results depend on the processing

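Of the 123 called genes chosen by rule, 0 turned their direction under the alternatives run, but the larger of the counts of rises and falls did (876 higher and 850 lower): it was falls with median centring (803 and 940), without dim probe sets (1011 and 1118), with the first residual component (1131 and 1193), against siControl replicates 4 to 8 alone (685 and 1149), within replicates 4 to 8 (749 and 1118) and without siKeap1-1 replicate 7, siControl replicate 1 or siControl replicate 2 (828 and 1012 for the last). The count of called genes, 1726, left the range of 1.5 times only with the 18S signal as a covariate (528), against siControl replicates 1 to 3 alone (622), within replicates 1 to 3 of both groups (359) and at an adjusted p under 0.01 (750, of which 428 were higher). Fewer samples or a stricter threshold enter 3 of these by construction. In the first the covariate itself differs between the groups, so the group difference is less precise by construction as well. How much of that drop this makes up was not tested. Leaving out each liver in turn gave 1356 to 1898 called genes, with siControl replicate 8 giving the lowest and siKeap1-1 replicate 3 the highest, 130 to 158 genes past a fold of 2 with an unadjusted p under 0.01, and a Keap1 change of -2.19 to -2.07. The count that differed between the Keap1 siRNAs, 44, was 31 to 43 without 1 siKeap1-1 liver, 73 with the first residual component as a covariate and 22 at an adjusted p under 0.01. This count was not taken in the fits by 18S signal or replicate set. In replicates 4 to 8 the 18S signal was 11.17 to 11.43 with siKeap1-1 and 10.45 to 10.96 with siKeap1-2. In replicates 1 to 3 it was 10.17 to 10.44 and 10.82 to 11.12. With the replicate number as a block, 1775 genes were called, 1551 of them among the 1726, and 30 differed between the siRNAs. The numbers did not pair the samples, since deviations of same-numbered livers correlated at -0.1128 to 0.1369 and 0 siKeap1-1 arrays correlated best with their own number. Of the 123 genes chosen by rule, 66 passed with the 18S covariate, 67 with siControl replicates 1 to 3, 48 within replicates 1 to 3 and 91 within replicates 4 to 8. All 123 had been called in the same livers, so that their direction held was likely from the start. Under quantile normalization, median centring, other moderation, array weights, the mean over probe sets or only the 16 arrays, 112 to 121 of them passed. The mean over both of its probe sets put Keap1 at -1.27.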
